A study of Mus musculus with 42 samples.

Results

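The genes described here are the axon guidance families as measured in mouse synovial fibroblasts, namely semaphorins, plexins, neuropilins, ephrins, Eph receptors, Slits, Robos and UNC5 receptors. They were chosen by gene symbol alone, with no use of the measured values. The rule took 139 probe sets of 61 genes, out of 18194 genes and 34958 probe sets that are listed with 1 gene, and 45101 probe sets on the array. By family these were 46 probe sets of 19 semaphorin genes, 22 of 9 plexins, 8 of 2 neuropilins, 17 of 8 ephrins, 28 of 13 Eph receptors, 6 of 3 Slits, 6 of 3 Robos and 6 of 4 UNC5 receptors. No member was filtered out, and 20 of the 61 genes had 1 probe set.

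Class 3 semaphorins are secreted ligands. Most bind neuropilins together with plexins, which carry the signal into the cell and act on small GTPases and the cytoskeleton. Ephrins are ligands held on the cell surface that bind Eph receptor tyrosine kinases on neighbouring cells, Slits are secreted ligands of Robo receptors, and UNC5 proteins are repulsive netrin receptors. These families were described first in growing axons, and they also act in blood vessel growth and in the positioning and migration of fibroblasts and other mesenchymal cells.

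The 42 arrays are 12 groups of cultured synovial fibroblasts, 27 arrays from TSG-6 knockout (KO) cultures and 15 from wild-type (WT) cultures. TSG-6 is a hyaluronan-binding protein that inflammatory cytokines induce, encoded by Tnfaip6. KO cells were treated with TNFa (4 arrays), LPS (4), recombinant mouse TSG-6 (3), the polysaccharide hyaluronan, abbreviated HA (4), or both (4), or left untreated (8). WT cells were given the same treatments (2 arrays each) or left untreated (5). Doses were 5 ng/ml of TNFa, 200 ng/ml of LPS, 120 µg/ml of TSG-6 and 24 µg/ml of HA, each for 12 h in low serum after an overnight serum starvation. All cells, controls included, came from female BALB/c mice with arthritis induced by cartilage proteoglycan in DDA adjuvant and were grown for up to 6 passages; ages and the knockout allele are not given in the sources used here. The labels call the cultures biological replicates and do not say that they came from separate animals, so the p-values measure the spread between cultures.

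The deposited values are log2 expression centred on each probe set's median over the 42 arrays, so a value of 0 is that median and no level can be compared between genes or called undetected. The probe set for Tnfaip6 did not separate the genotypes: it averaged -0.11 ± 0.23 in untreated KO (SD, n = 8) and -0.37 ± 0.16 in untreated WT cultures (n = 5), a difference of 0.26 ± 0.15 (SE) with a limma adjusted p of 0.229. No source used here places this probe set relative to the deleted part, so it does not check the labels, and KO and WT below are the labels' genotypes. Of 13 blood endothelial markers, 12 were lower in untreated KO than in untreated WT cultures, and the list's mean ran from -1.32 to 0.28 over the KO arrays and from 3.43 to 4.16 over the WT arrays. Of 10 fibroblast markers, Pdgfra, Dcn and Lum were higher and Col1a1, Col1a2 and Thy1 lower in KO. In bulk cultures, fewer cells of a type and less RNA per cell cannot be told apart. Within each genotype the arrays also fell into 2 sets, a and b, defined here from probe sets outside the guidance families. They held 14 and 13 KO arrays and 8 and 7 WT arrays, and values are given within them where they differ. This split was shown by 33 of 42 WT probe sets with a gap of 1 log2 unit or more, but by 12 of 25 such KO probe sets. The blood endothelial mean was -0.49 to 0.28 in KO set a and -1.32 to -1.12 in KO set b. In 10 KO and 5 WT arrays the 18S ribosomal RNA probe set exceeded its median by over 1 log2 unit. All 5 of these WT arrays were in set b, whereas the KO ones were in both sets. In WT cells the array set and the 18S signal are therefore not separate checks. No guidance probe set correlated above 0.7 with the 18S probe set. Probe sets of Unc5a (0.6964), Sema4b (0.6776), Sema4d (0.675) and Epha1 (0.6745) came close to that limit. The arrays high in 18S include 1 of the 2 WT arrays with TNFa, with LPS, with HA and with TSG-6 and HA. They also include 2 of the 4 KO arrays with TNFa. A fit without them keeps 1 array in those WT groups, so no test of these groups without them is given.

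Over the 42 arrays the guidance probe sets varied by a median SD of 0.277, against 0.215 for all probe sets with 1 gene. Sema3c (SD 1.65), a secreted semaphorin, and Ephb6 (SD 1.31), an Eph receptor without kinase activity, varied most in their families and lay between -3.96 and 1.10 and between -2.96 and 1.11. Plxnd1 (0.761), Robo1 (0.658), Nrp2 (0.616), Slit2 (0.553), Efna3 (0.552) and Unc5b (0.524) led the other families. The least variable were Epha6 (0.126), Robo2 (0.142), Unc5d (0.165), Plxna3 (0.182), Efnb3 (0.185), Slit1 (0.198), Sema5b (0.206) and Nrp1 (0.355). The heatmap of group means shows that the rows with strong contrast split KO from WT in every treatment (Sema3c, Ephb6, Plxnd1) or set TNFa apart from the other treatments (Nrp2, Efnb2, Efna1).

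Among the treatments of KO cells, TNFa gave the highest count of changed guidance genes. It raised the receptor Nrp2 3.11-fold and the receptor Plxnd1 1.72-fold, lowered the ligand Sema3e 4.14-fold and lowered 7 of the 8 ephrin genes. In all, 32 of 139 guidance probe sets (23.0%) passed the limma test at an adjusted p under 0.05, against 12.5% of all 34958 probe sets. Of these, 7 rose (5.04%, against 5.89% of all probe sets) and 25 fell, against 6.59% of all. Of the 139, 21 were called in groups that do not overlap (15.1%, against 7.56% of all). The called probe sets belong to 21 of the 61 genes, 4 with rises and 17 with falls. Without the arrays high in 18S the count was 25, and within each of the 2 array sets it was 24 and 28.

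The promoters of Nrp2, Plxnd1 and Sema3e are shown because these genes, of the neuropilin, plexin and semaphorin families, changed under TNFa. They are not given as a receptor pair and its ligand. Sema3c, a further semaphorin, is shown as the gene with the largest difference between genotypes. Each line gives the 250 bases before the RefSeq start site on GRCm38.p6, read 5′ to 3′ on the gene's strand, with the GC box hexamer GGGCGG, or its reverse complement CCGCCC, in capitals. Nrp2 is at chr1:62703067-62703316 on the plus strand, Plxnd1 at chr6:115995006-115995255 on the minus strand, Sema3e at chr5:14025026-14025275 on the plus strand and Sema3c at chr5:17574566-17574815 on the plus strand.
Nrp2 promoter: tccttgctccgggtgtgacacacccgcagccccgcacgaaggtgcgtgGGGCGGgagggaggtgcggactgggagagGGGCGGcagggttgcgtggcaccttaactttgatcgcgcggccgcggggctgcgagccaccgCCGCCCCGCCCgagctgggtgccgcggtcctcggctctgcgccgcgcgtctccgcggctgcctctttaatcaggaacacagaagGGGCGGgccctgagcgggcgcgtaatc
Plxnd1 promoter: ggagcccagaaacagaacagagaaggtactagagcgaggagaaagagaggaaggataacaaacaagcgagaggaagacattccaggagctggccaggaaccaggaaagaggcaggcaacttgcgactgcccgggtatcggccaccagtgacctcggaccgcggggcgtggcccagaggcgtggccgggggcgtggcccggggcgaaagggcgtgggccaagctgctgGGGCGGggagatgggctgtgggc
Sema3e promoter: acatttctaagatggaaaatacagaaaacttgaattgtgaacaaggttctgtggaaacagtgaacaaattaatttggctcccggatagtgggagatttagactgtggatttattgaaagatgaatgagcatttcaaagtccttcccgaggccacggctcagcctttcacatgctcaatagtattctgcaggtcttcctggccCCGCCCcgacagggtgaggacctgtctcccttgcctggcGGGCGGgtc
Sema3c promoter: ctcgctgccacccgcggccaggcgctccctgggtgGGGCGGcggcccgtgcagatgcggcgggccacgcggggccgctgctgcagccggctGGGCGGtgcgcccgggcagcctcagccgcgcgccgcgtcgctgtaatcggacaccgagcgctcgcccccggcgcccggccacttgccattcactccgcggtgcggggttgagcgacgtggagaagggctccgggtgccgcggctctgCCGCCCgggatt

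The 4 windows hold 32, 16, 7 and 39 CpG dinucleotides, in the order printed, and the 69 windows found for 53 guidance genes had a median of 15, against 6 for all 32851 windows. A GC box on either strand was in 72.5% of the guidance windows and 32.7% of all windows. It was in a window of 16 of the 20 genes changed by TNFa in KO cells that had a window, and of 41 of all 53 guidance genes. The AP-1 form TGANTCA, searched on both strands, was in 3 of the 69 guidance windows and 6.75% of all windows, and in no window of the 20 genes. An NF-kB form was in 1 of the 69 (1.45%, against 1.41% of all) and in none of the 20 genes. The TATA form TATAAA was in 2 of the 69 (2.90%, against 12.4% of all), those of Efnb2 and Slit2, both among the 20.

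Nrp2, the neuropilin that binds Sema3f and serves as a co-receptor for VEGF-C, had log2 values of 0.75, 0.98, 1.12 and 1.20 in KO cells with TNFa. In untreated KO cells it ran from -0.76 to -0.53 with a median of -0.60. The groups lie far apart, and every treated array was above every control. The rise was 1.64 ± 0.09 on the log2 scale (SE, adjusted p = 1.77e-15), and all 4 Nrp2 probe sets rose, by 0.81 to 1.64. In WT cells with TNFa, Nrp2 had 0.86 and 0.96, against 0.64, 0.56, 0.58, 0.42 and 0.36 in untreated WT cells. Both treated WT arrays were higher, by 0.40 ± 0.13, which did not pass the test (adjusted p = 0.124). A further Nrp2 probe set did pass in WT, with a rise of 0.61 ± 0.16 (adjusted p = 0.025), but lost the call in quantile-normalised values and with either WT TNFa array left out (adjusted p of 0.172 and 0.249). The response itself differed between genotypes, larger in KO by 1.24 ± 0.16 (adjusted p = 1.37e-05). At the further probe set it was larger by 0.86 ± 0.19 (adjusted p = 0.0235). A fit without the arrays high in 18S keeps 1 WT array with TNFa, so it cannot check this difference. Under TNFa, KO and WT cells differed by 0.10 (adjusted p = 0.706), whereas untreated KO cells lay 1.14 ± 0.09 below untreated WT cells (adjusted p = 4.42e-13). Nrp1, the other neuropilin, averaged 0.11 ± 0.29 in KO cells with TNFa (SD, n = 4) and 0.20 ± 0.19 in untreated KO cells (n = 8), and did not pass the test (adjusted p = 0.859).

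**Figure D1:**
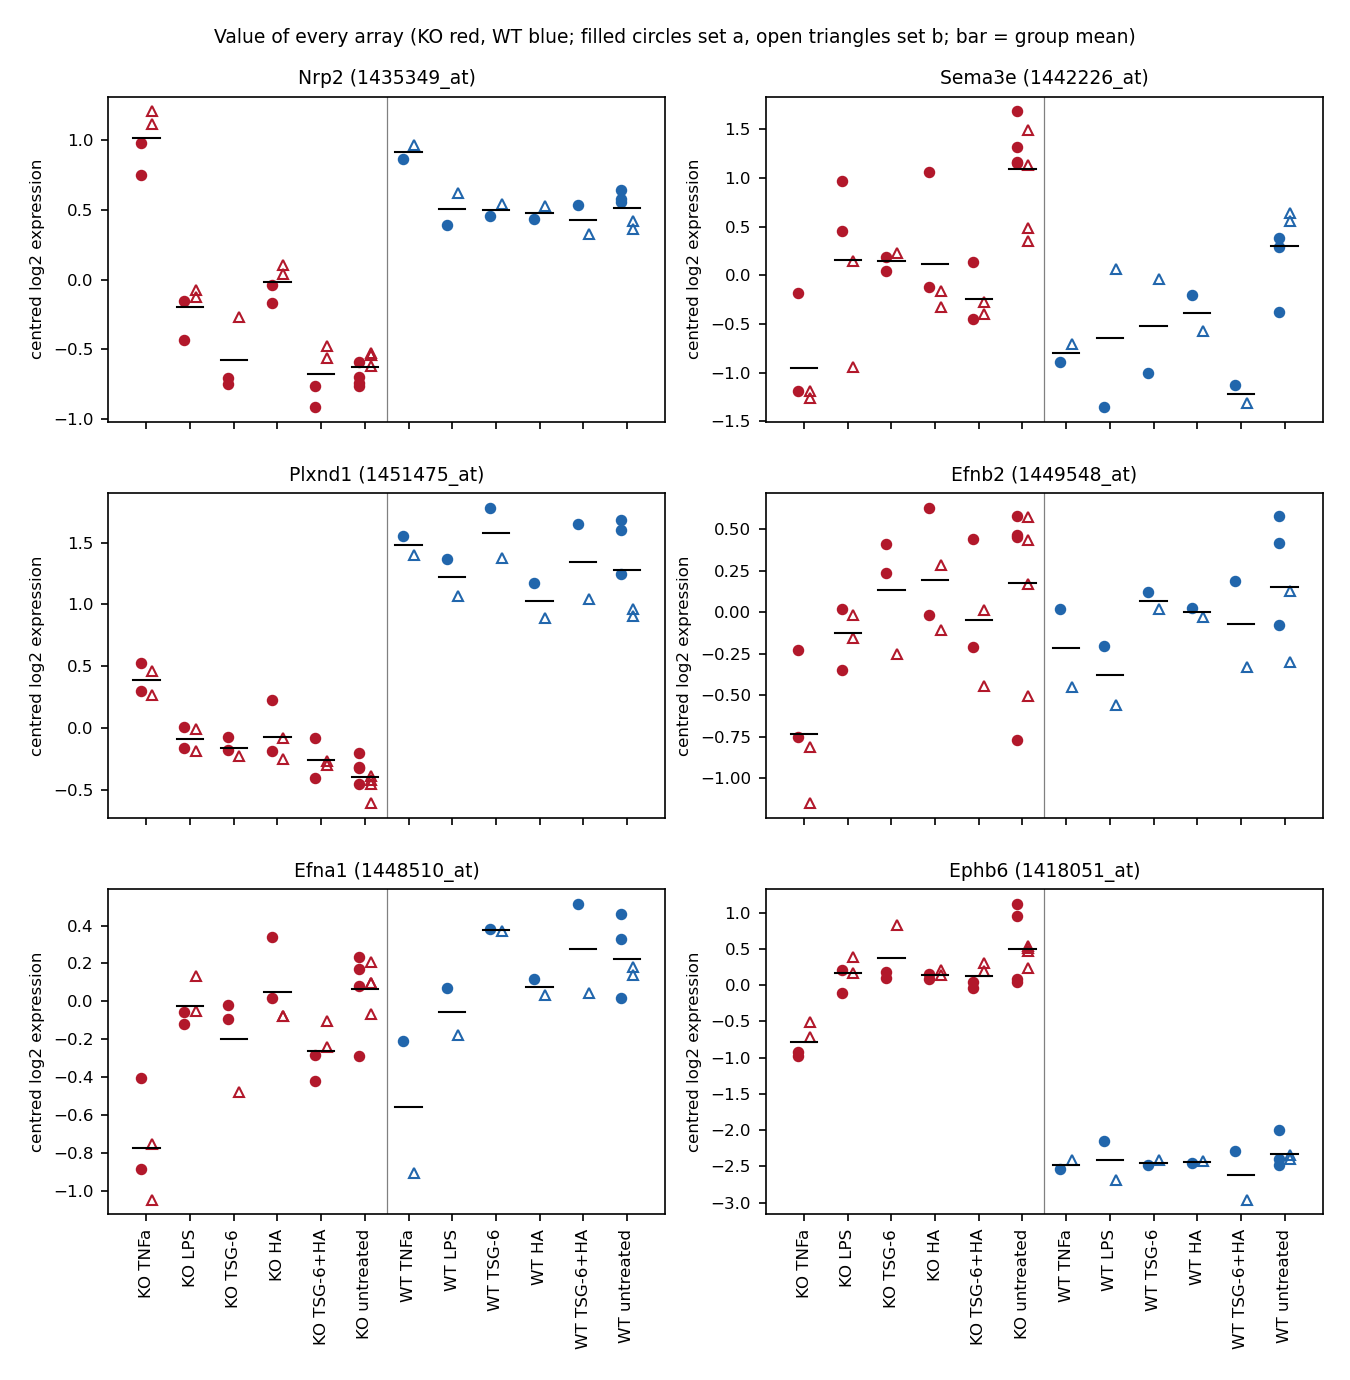
Log2 value of each array (circles and triangles, the 2 array sets) and group mean (lines) for 6 guidance genes over the 12 groups, KO groups to the left of WT groups, on an axis centred on the probe set's median. Nrp2 in KO cells stands at 0.75 to 1.20 under TNFa and at -0.76 to -0.53 untreated, while Sema3e is highest in untreated KO cells.

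Plxnd1, the plexin that binds Sema3e directly, had 0.53, 0.30, 0.46 and 0.26 in KO cells with TNFa and -0.61 to -0.20, median -0.40, in untreated KO cells. The groups did not overlap, and the rise was 0.78 ± 0.12 (adjusted p = 1.38e-05). In WT cells it had 1.55 and 1.40 with TNFa and 1.68, 1.25, 1.60, 0.96 and 0.91 untreated, so the WT groups overlap. No other plexin passed the test in KO cells; Plxna1, a co-receptor of the neuropilins, differed by -0.02 ± 0.18 (adjusted p = 0.965).

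Among the semaphorins, 7 genes fell and 1 rose under TNFa in KO cells. Sema3e had -1.19, -0.18, -1.26 and -1.18 with TNFa and 0.35 to 1.68, median 1.16, untreated. All treated arrays lay below all controls, though replicate 2 was far nearer to them than the others. The fall was 2.05 ± 0.30 on the log2 scale (adjusted p = 3.18e-06), and all 4 Sema3e probe sets fell, by 1.28 to 2.05. Sema3g, a ligand of Nrp2, had 0.61, 0.01, 1.57 and 1.20 with TNFa and -0.86 to -0.28, median -0.53, untreated. It rose by 1.40 ± 0.36 (adjusted p = 0.00685), with treated arrays that spread over more than 1 log2 unit, and without replicate 3 the adjusted p was 0.0583. Sema5a, a transmembrane semaphorin, fell by 1.19 ± 0.36 (adjusted p = 0.0211) at 1 of its 4 probe sets and by 0.84 ± 0.25 at another; without replicate 1 or replicate 3 with TNFa the first was no longer called. Sema6d fell by 0.82 ± 0.22 (adjusted p = 0.00851). Sema3f, the main Nrp2 ligand, fell by 0.37 ± 0.10 (adjusted p = 0.00933), in groups that overlap. Sema3d (log2 change -0.74) and Sema4g (-0.64) were also called, in groups that overlap. Sema3a, the main Nrp1 ligand, fell by 1.41 ± 0.36 at 1 of 3 probe sets (adjusted p = 0.00533), while the probe set with the largest spread gave -0.98 ± 0.39 (adjusted p = 0.0967). Sema4d gave -0.06 ± 0.15 (adjusted p = 0.868).

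Most ephrins fell in KO cells with TNFa. Of 17 ephrin probe sets 10 fell, where 6.59% of all probe sets did, and none rose (median log2 change -0.45, against 0.01 for all probe sets), and 16 of the 17 changes were below 0. Efnb2, the transmembrane ligand of Ephb4, had at the probe set with the smallest adjusted p -0.84, -0.48, -0.88 and -0.58 with TNFa and 0.09 to 0.66, median 0.20, untreated. The groups did not overlap; the fall was 0.99 ± 0.10 (adjusted p = 3.83e-09), and 3 of 4 Efnb2 probe sets fell. The Efnb2 probe set with the largest spread fell by 0.91 ± 0.22 (adjusted p = 0.00343), in groups that overlap. Efna1, a membrane-anchored ligand of Epha2, had -0.40, -0.88, -0.75 and -1.04 with TNFa and -0.29 to 0.23, median 0.10, untreated. The groups did not overlap, and both Efna1 probe sets fell, by 0.84 ± 0.12 (adjusted p = 4.83e-06) and by 0.72 ± 0.09 (adjusted p = 3.24e-07). Efna4 fell by 0.53 ± 0.09 (adjusted p = 2.78e-05), again without overlap. Efnb1 (-0.55), Efna3 (-0.45 at 1 probe set; -0.67, adjusted p = 0.0529, at the more variable one), Efna2 (-0.45) and Efna5 (-0.39) passed the test in groups that overlap, and each lost its call when some single array was left out. Efnb3 gave 0.02 ± 0.11 (adjusted p = 0.954).

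**Figure D2:**
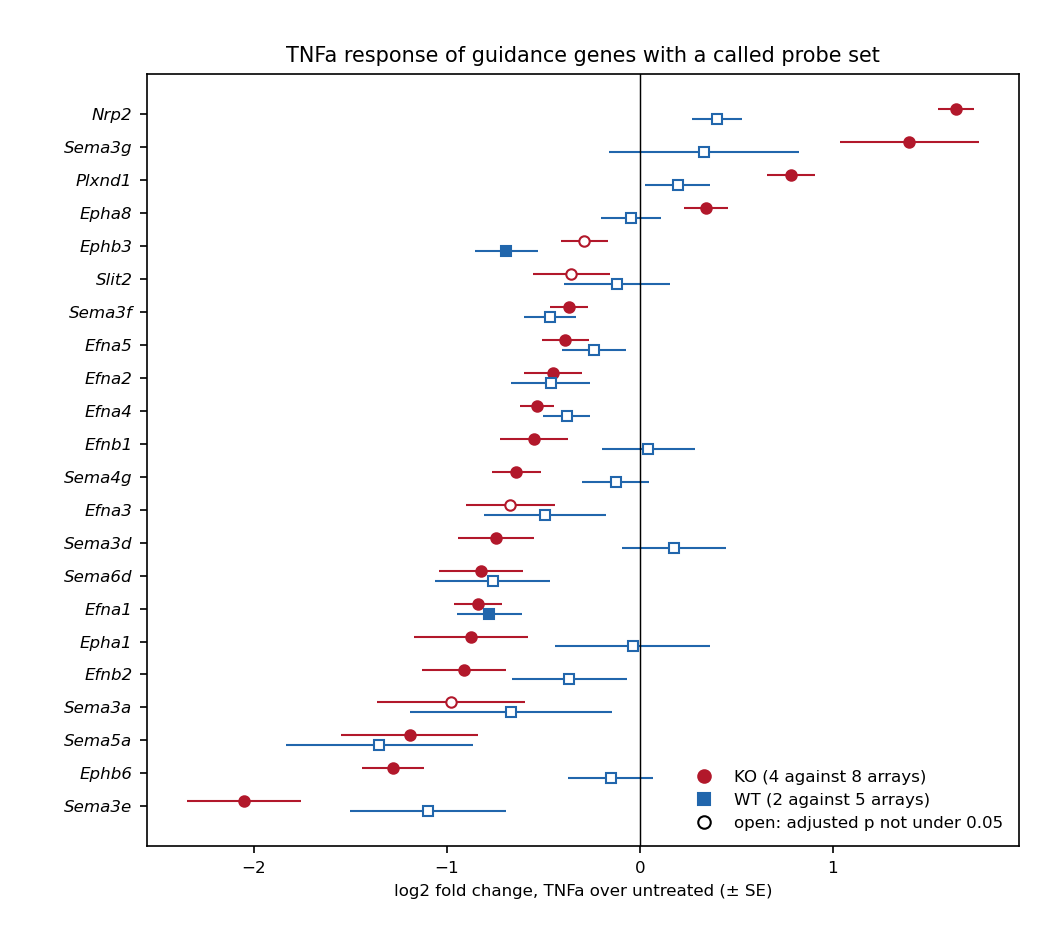
Log2 change under TNFa with its standard error (bars) for guidance genes with a called probe set, at the probe set of largest spread, KO (circles) and WT (squares); open symbols did not pass the test. Nrp2 and Plxnd1 lie right of 0 and Sema3e, Ephb6, Efnb2 and Efna1 left of it in KO cells.

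Of the Eph receptors, 2 genes fell and 1 rose. Ephb6 had -0.98, -0.92, -0.50 and -0.72 in KO cells with TNFa and 0.04 to 1.11, median 0.49, in untreated KO cells. The groups did not overlap, and the fall was 1.28 ± 0.16 (adjusted p = 2.48e-07). In WT cells Ephb6 had -2.53 and -2.42 with TNFa and -2.40, -2.48, -2.0, -2.34 and -2.40 untreated, below every KO array. The responses differed by -1.13 ± 0.27 (KO minus WT, adjusted p = 0.0387). A fit without the arrays high in 18S keeps 1 WT array with TNFa, so it cannot check this difference either. Whether the WT values lie at the lower end of what the probe set can measure cannot be read from centred values. Epha1 fell at 2 of its 3 probe sets (log2 changes -1.05 and -0.87), and the third gave 0.40 ± 0.14 (adjusted p = 0.0569), so its probe sets disagree. Epha8 rose by 0.35 ± 0.11 (adjusted p = 0.0394) in overlapping groups. Epha2 and Ephb4, the receptors of Efna1 and Efnb2, gave 0.03 ± 0.10 and 0.02 ± 0.13 (adjusted p of 0.887 and 0.950).

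Slit2, the ligand of Robo1, fell at 1 of its probe sets by 0.38 ± 0.11 (adjusted p = 0.0165) in overlapping groups, and the probe set with the largest spread gave -0.36 ± 0.20 (adjusted p = 0.296). Slit3 gave -0.26 ± 0.14, Robo1 0.30 ± 0.21, Robo2 0.09 ± 0.09 and Unc5b 0.08 ± 0.14 (adjusted p of 0.292, 0.418, 0.640 and 0.809). Unc5c, a netrin receptor, gave 0.48 ± 0.17 (adjusted p = 0.058). No Robo or UNC5 probe set passed the test.

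In WT cells TNFa changed 5 guidance probe sets of 4 genes (3.60%, against 2.07% of all probe sets), 1 of them upward (1.09% of all). Both Efna1 probe sets fell: the first had -0.21 and -0.90 with TNFa and 0.02, 0.33, 0.46, 0.18 and 0.14 untreated. Its groups do not overlap, but 1 treated array is close to the controls; the fall was 0.78 ± 0.17 (adjusted p = 0.00486). Efnb2 had -0.54 and -0.44 with TNFa and -0.01, 0.02, -0.07, 0.04 and 0.10 untreated, a fall of 0.51 ± 0.14 (adjusted p = 0.0452). Both treated arrays lie below all controls, but the Efnb2 probe set with the largest spread gave -0.36 ± 0.30 (adjusted p = 0.940) in overlapping groups. Ephb3 fell by 0.69 ± 0.17 (adjusted p = 0.0137). With 2 treated arrays these calls were fragile, and none of the 139 passed in quantile-normalised values. Leaving out either treated array, or the arrays high in 18S, keeps 1 array with TNFa, so such fits cannot decide whether these 5 calls hold. With the array set as a block, 18 guidance probe sets were called. Blood endothelial markers moved in the same comparison, with Cldn5 and Ptprb of 13 falling and a list median of -0.40. Lpl of 3 adipocyte markers fell by 1.69 ± 0.43 (adjusted p = 0.0255). The part of these markers in the WT changes was not tested. In KO cells with TNFa 1 of the 13, Erg, fell, and the list median was -0.17. Other cell type markers called there were Cd14 (1.06 ± 0.15) and Csf1r (0.84 ± 0.17) of 9 macrophage markers, Cspg4 (-0.77 ± 0.16) of 7 mural markers and Lpl (-1.44 ± 0.32) of 3 adipocyte markers, and their part was not tested. Efna1, Efnb2 and Nrp2 were called in both genotypes, that is 3 of the 21 genes called in KO and 3 of the 4 called in WT. The test of the difference in response passed for 3 guidance probe sets (2.16%, against 0.601% of all), those of Nrp2 and Ephb6 given above, so for the other genes no difference in response between genotypes was shown.

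LPS changed 2 guidance probe sets in KO cells (1.44%, against 1.38% of all). Nrp2 had -0.43, -0.15, -0.07 and -0.12 with LPS, just above the -0.76 to -0.53 of untreated KO cells. It rose by 0.43 ± 0.09 (adjusted p = 0.00809), and was not called in quantile-normalised values (adjusted p = 0.0538) without LPS replicate 3 (0.065) or without the arrays high in 18S (0.322). One Sema3e probe set fell by 0.99 ± 0.20 (adjusted p = 0.00427), while the one with the largest spread gave -0.94 ± 0.30 (adjusted p = 0.131). Compared directly, in a test added after these values were seen, TNFa and LPS in KO cells differed at 10 guidance probe sets (7.19%, against 2.92% of all). Nrp2 was higher with TNFa by 1.21 ± 0.11 (adjusted p = 7.14e-10), Unc5c higher by 0.95 ± 0.19 (0.00189), and Efnb2 at 2 of 4 probe sets (-0.70 ± 0.12, adjusted p = 0.000141; -0.61 ± 0.25, 0.272, at the most variable one), Efna1 (-0.75 ± 0.14, 0.000778) and Ephb6 (-0.94 ± 0.19, 0.00113) were lower with TNFa. Without the arrays high in 18S, Unc5c, Ephb6 and this Efna1 probe set lost their calls (adjusted p of 0.145, 0.303 and 0.148). In WT cells LPS changed no guidance probe set by limma (0.00%, against 0.938% of all), with 27 of 139 at an unadjusted p under 0.05 (19.4%, against 5.56% of all). With the array set as a block, LPS changed 9 guidance probe sets in WT and 16 in KO cells. Cell type markers called with LPS in WT cells were Cldn5 (-2.40 ± 0.25), Ptprb (-1.35 ± 0.28) and Cspg4 (-1.14 ± 0.21). In KO cells they were Cd14 (0.81 ± 0.15) and Col3a1 (0.79 ± 0.19). The part of these markers was not tested. The difference in LPS response between genotypes passed for none (0.123% of all), with 6 at an unadjusted p under 0.05 (4.32%, against 2.66% of all).

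TSG-6 and its ligand HA were given alone and together. In KO cells HA alone changed 2 probe sets (1.44%, against 0.400% of all), both of Nrp2. Nrp2 had -0.04, -0.17, 0.04 and 0.10 with HA, all above every untreated KO array, and rose by 0.61 ± 0.09 (adjusted p = 0.000413). With TSG-6 alone it had -0.70, -0.75 and -0.27, a change of 0.05 ± 0.10 (adjusted p = 0.894), and with TSG-6 and HA together -0.91, -0.76, -0.56 and -0.48, a change of -0.05 ± 0.09 (adjusted p = 0.836). Both of these groups overlap the untreated arrays. In a direct comparison added after these values were seen, Nrp2 was lower with TSG-6 and HA than with HA alone by 0.66 ± 0.11 (adjusted p = 0.000432; 2 guidance probe sets called, both of Nrp2, 1.44% against 1.52% of all). It was also lower with TSG-6 than with HA, by 0.56 ± 0.12 (adjusted p = 0.0109; 0.719% called, against 0.744% of all), a call lost without the arrays high in 18S (0.315).

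TSG-6 with HA changed 10 guidance probe sets in KO cells (7.19%, against 8.60% of all), 9 of them downward (5.53% of all), and TSG-6 alone changed 4 (2.88%, against 4.38%), all downward (2.31% of all). These comparisons share the 8 untreated KO arrays with each other and with the TNFa comparison. Sema3e had -0.45, 0.14, -0.40 and -0.27 with TSG-6 and HA, all below the 0.35 to 1.68 of untreated KO cells. All 4 of its probe sets fell, the first by 1.34 ± 0.30 (adjusted p = 0.00238). With TSG-6 alone 2 of the 4 fell, one by 1.14 ± 0.22 (adjusted p = 0.00136), while the one with the largest spread gave -0.94 ± 0.33 (adjusted p = 0.103). Plxna2, a plexin that pairs with neuropilins, had -1.01, -0.92, -0.45 and -0.36 with TSG-6 and HA and -0.17 to 0.34, median 0.16, untreated. The groups did not overlap; it fell by 0.80 ± 0.17 (adjusted p = 0.0013) and at 3 of 4 probe sets, by 0.58 ± 0.15 (adjusted p = 0.0117) at the one with the largest spread. With TSG-6 alone the same Plxna2 probe set had -0.92, -0.79 and -0.22 and fell by 0.76 ± 0.18 (adjusted p = 0.011), a call lost without replicate 1 or replicate 2 and without the arrays high in 18S; the probe set with the largest spread gave -0.43 ± 0.17 (adjusted p = 0.174). Sema3f fell by 0.37 ± 0.10 with TSG-6 and HA (adjusted p = 0.0119) and by 0.37 ± 0.11 with TSG-6 alone (adjusted p = 0.0401). Efna2 fell by 0.55 ± 0.15 (adjusted p = 0.0162) and 1 of 3 Sema4d probe sets rose by 0.32 ± 0.10 (adjusted p = 0.0331) with TSG-6 and HA; without the arrays high in 18S, the calls of Sema3f, Efna2 and Sema4d were lost (adjusted p of 0.0555, 0.338 and 0.426). The collagen genes Col1a1, Col1a2 and Col3a1, of 10 fibroblast markers, rose in the same comparison. With TSG-6 alone in KO cells, Col1a2 (0.59 ± 0.14), Col3a1 (1.17 ± 0.21) and the mural marker Acta2 (1.13 ± 0.31) were called. In WT cells the blood endothelial marker Cldn5 was called with HA (-1.24 ± 0.25) and with TSG-6 and HA (-1.64 ± 0.25). The part of these markers was not tested. In WT cells neither TSG-6, HA nor both changed a guidance probe set by limma (0.283%, 0.0887% and 0.584% of all called), with 5, 12 and 17 of 139 at an unadjusted p under 0.05 (3.60% against 3.49% of all for TSG-6, 8.63% against 3.93% for HA and 12.2% against 7.98% for both). With the array set as a block, TSG-6 with HA changed 5 in WT and 27 in KO cells, and in KO cells TSG-6 alone changed 14 and HA alone 9.

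In untreated cells 66 of 139 guidance probe sets differed (47.5%, against 33.8% of all), 35 higher (17.9% of all) and 31 lower (15.8% of all) in KO, in 22 and 17 genes. Of the 139, 35 were called in groups that do not overlap (25.2%, against 19.6% of all). Higher in KO were 8 semaphorin genes, 5 of the 8 ephrins, 4 Eph receptors, 3 plexins, Robo1 and Unc5c. Lower in KO were 6 semaphorins, 4 plexins, 3 Eph receptors, Nrp2, Slit2, Slit3 and Unc5b. The blood endothelial markers moved with genotype by a list median of -5.20 in the same arrays, the list's mean being -0.53 in untreated KO and 4.05 in untreated WT cultures, and their part in these differences was not tested. The means of 4 other marker lists did not overlap between these groups either. The lymphatic endothelial mean was -0.37 to 0.03 in KO and 2.05 to 2.58 in WT arrays, and the macrophage mean -0.42 to -0.06 in KO and 0.04 to 0.08 in WT. The chondrocyte mean was 0.09 to 0.26 in KO and -1.16 to -0.91 in WT, and the Schwann and neural mean -0.01 to 0.25 in KO and -0.72 to -0.47 in WT. These means do not show that whole lists moved. In cells with HA, KO minus WT, S100b differed by 2.62 and the other Schwann and neural genes by 0.0 to 0.2. Comp and Col2a1 were higher, the other chondrocyte genes differing by -0.25 to 0.18. Lyve1 (-6.72) and Flt4 (-4.26) were lower, the other lymphatic genes differing by -0.38 to 0.43. Lyz2 (-2.06) and Cd14 (-1.06) were lower, the other macrophage genes differing by -0.29 to 0.28. The part of these lists was not tested. Genotype and the cultures it was measured in cannot be told apart.

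Sema3c, a secreted ligand of the neuropilins, had -0.21 to 0.47, median 0.16, in untreated KO cells and -3.23, -2.85, -3.35, -3.68 and -3.39 in untreated WT cells. The ranges are separated by more than 2 log2 units, and the difference was 3.48 ± 0.24, or 11.2-fold (adjusted p = 2.65e-14). Both Sema3c probe sets were higher in KO. Ephb6 had 0.04 to 1.11, median 0.49, in untreated KO cells, against -2.48 to -2.0 in untreated WT cells, a difference of 2.82 ± 0.15, or 7.06-fold (adjusted p = 1.91e-17). Sema3b, a further secreted semaphorin, was higher by 1.56 ± 0.27 (adjusted p = 1.32e-05), though by 0.97 in 1 array set and 2.38 in the other. Robo1, the Slit receptor, had -0.22 to 0.54, median 0.17, in untreated KO cells and -0.92, -1.07, -0.90, -1.38 and -1.47 in untreated WT cells. It was higher by 1.30 ± 0.19 (adjusted p = 7.88e-07), without overlap. Sema4g (0.92), Sema3d (0.87), Unc5c (0.86), Sema4b (0.81) and Epha7 (0.71) followed without overlap, and Efna3 (0.75) at 1 probe set without overlap and at the more variable one (0.90) with it.

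Plxnd1 had -0.61 to -0.20, median -0.40, in untreated KO cells and 0.91 to 1.68 in untreated WT cells. It was lower by 1.68 ± 0.12 (3.20-fold, adjusted p = 1.97e-14). Ephb4, the receptor of Efnb2 that marks venous endothelium, had -0.24 to 0.45, median -0.09, in untreated KO cells and 1.54, 1.12, 1.71, 1.01 and 0.76 in untreated WT cells, a difference of -1.27 ± 0.12 (adjusted p = 9.67e-11). Epha2, a receptor of A-type ephrins, had -0.18 to 0.18, median -0.02, in untreated KO cells and 1.07, 1.34, 1.27, 1.23 and 1.06 in untreated WT cells, a difference of -1.22 ± 0.09 (adjusted p = 1.01e-13). In none of these 3 genes did the groups overlap. Sema6d (-1.54 ± 0.20), Sema4c (-1.22 ± 0.12), Nrp2 (-1.14 ± 0.09), Unc5b (-0.95 ± 0.13), Plxna2 (-0.99 ± 0.14), Sema3f (-0.92 ± 0.09) and Slit2 (-0.88 ± 0.19) were also lower, each without overlap. Sema3e was higher by 0.80 ± 0.28 (adjusted p = 0.0219) and Sema3a lower by 1.11 ± 0.36 (adjusted p = 0.0135), both in overlapping groups: within the 2 array sets Sema3a differed by -0.26 and -2.24. Nrp1 (0.20 ± 0.19), Sema4d (0.26 ± 0.14) and Robo2 (0.11 ± 0.09) did not pass the test, nor did Plxna1 at 1 probe set (0.02 ± 0.16), while its other probe set was higher in KO (0.39 ± 0.08, adjusted p = 0.000193).

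**Figure D3:**
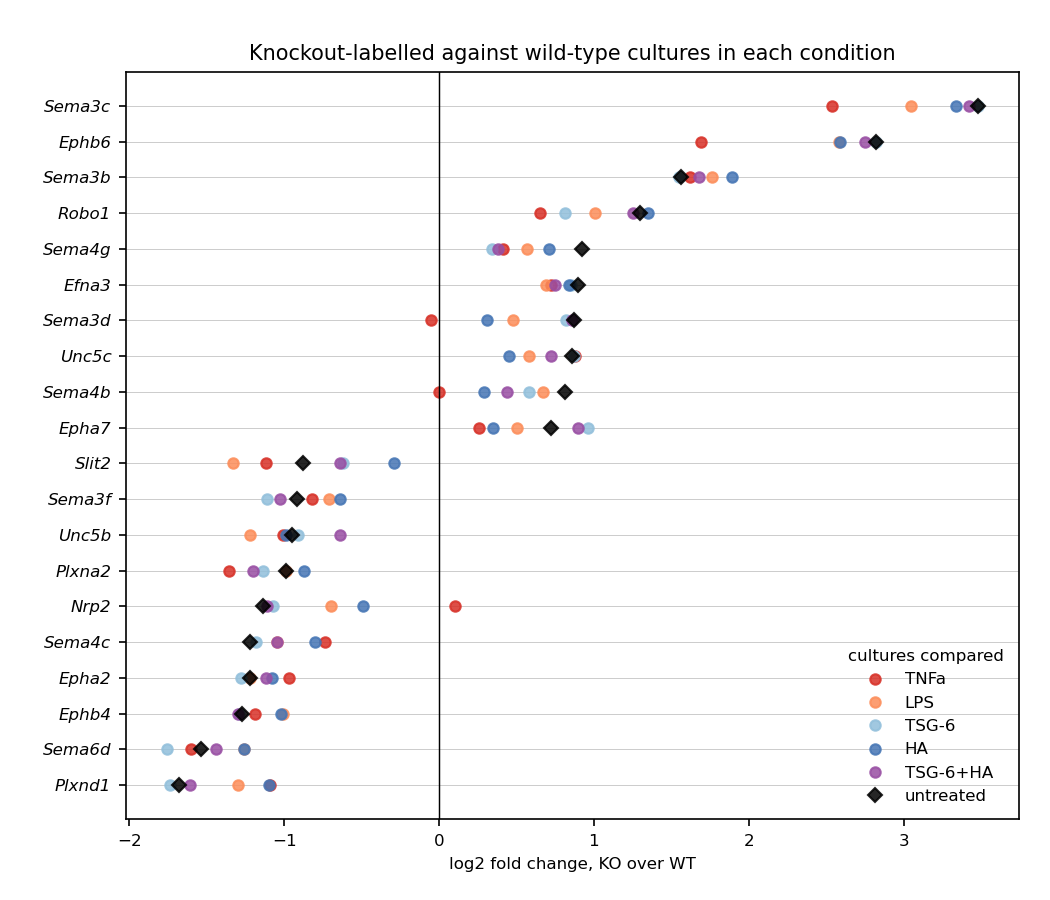
Log2 difference, KO minus WT (horizontal axis), in each of the 6 conditions (coloured points; diamonds, untreated) for the guidance genes named in the comparison of untreated cells, with 0 as no difference. Sema3c stays between 2.54 and 3.48 and Plxnd1 between -1.74 and -1.09, while Nrp2 moves to 0.10 under TNFa.

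The same genes were set side by side in the 6 conditions, in each of which KO and WT have arrays of their own. Of the guidance probe sets, 12.2% (17 of 139) were called in the same direction in all 6, against 9.98% of all probe sets. Sema3c was higher in KO by 2.54 to 3.48, Ephb6 by 1.69 to 2.82, Sema3b by 1.55 to 1.89, Epha4 by 0.47 to 1.37 and Sema4f by 0.64 to 1.13. Lower in KO in all 6 were Plxnd1 (-1.74 to -1.09), Sema6d (-1.76 to -1.26), Ephb4 (-1.30 to -1.01), Epha2 (-1.28 to -0.97), Plxna2 (-1.36 to -0.87), Sema4c (-1.22 to -0.74), Unc5b (-1.22 to -0.64), Sema3f (-1.11 to -0.64) and, at 1 probe set, Slit2 (-1.20 to -0.79). Nrp2 was lower in 5 of the 6, the exception being TNFa. In the treated cells, of 139 guidance probe sets, 32 differed by genotype with TNFa (20.1% of all), 34 with LPS (19.9%), 32 with TSG-6 (15.5%), 25 with HA (19.3%) and 38 with both (17.8%). The guidance share was below that of all probe sets with HA and above it in the other 4.

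**Figure D4:**
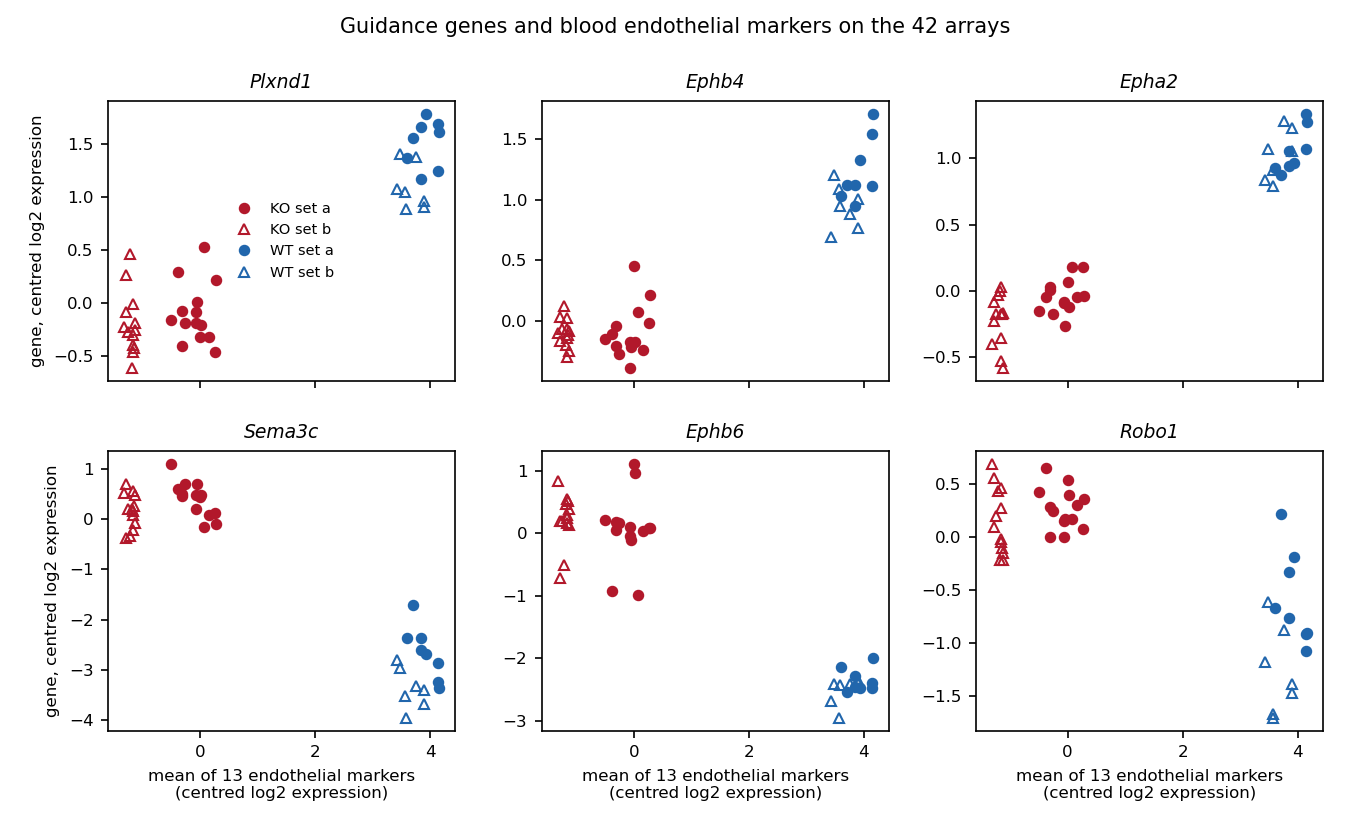
Log2 value of Plxnd1, Ephb4, Epha2, Sema3c, Ephb6 and Robo1 (vertical axes) against the mean of 13 blood endothelial markers (horizontal axis) in each of the 42 arrays, KO in red and WT in blue, with circles and triangles for the 2 array sets. The marker mean is -1.32 to 0.28 in KO and 3.43 to 4.16 in WT arrays, so the genotypes form clusters and no pooled correlation is given.

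Genes that work with these families were taken from 5 lists. Of all probe sets, 12.5% were called in KO cells with TNFa, 2.07% in WT cells with TNFa and 8.60% in KO cells with TSG-6 and HA. In KO cells with TNFa the plexin partners had 1 rise and 2 falls among 22 measured: Rnd1, a GTPase that binds plexins, rose by 2.91 ± 0.17 (adjusted p = 1.62e-15), Mical1 fell by 0.65 ± 0.13 and the adhesion molecule L1cam by 0.91 ± 0.25. Rnd1 also rose in WT cells, by 1.86 ± 0.23 (adjusted p = 8.96e-07). Of 8 VEGF ligands and receptors, Vegfc, a ligand that uses Nrp2, rose by 0.77 ± 0.17 and Flt1 by 1.23 ± 0.22, and Vegfd fell by 1.05 ± 0.21. Of 16 other guidance cues and receptors (netrins, RGMs and their receptors, Draxin, the FLRTs, Sema7a and Robo4), none of which matches the symbol rule, Ntn4 alone was called, falling by 1.28 ± 0.17 (adjusted p = 9.23e-07). Of 20 Eph signalling genes, Vav3 fell by 0.79 ± 0.20 and Nck2 by 0.43 ± 0.10. Of 14 Slit and Robo partners, Srgap3 rose by 0.35 ± 0.12 while Sdc2 fell by 1.03 ± 0.13 and Evl by 0.78 ± 0.14. Besides Rnd1, genes of these lists were also called in WT cells with TNFa. These were Vegfc (1.24 ± 0.24, adjusted p = 0.0011), Vegfd (-1.06 ± 0.28, 0.0357), Vav3 (-1.15 ± 0.28, 0.0156) and Ntn1 (0.97 ± 0.25, 0.0255). Ntn1 was not called in KO cells with TNFa (0.33 ± 0.18, adjusted p = 0.291). With TSG-6 and HA in KO cells Ntn4 fell by 1.95 ± 0.17 (adjusted p = 1.15e-09) and Rnd1 rose by 1.07 ± 0.17 (adjusted p = 3.07e-05). Both were called in the same direction in each other KO treatment, against the same 8 untreated arrays. Ntn4 changed by -1.11 ± 0.17 with LPS, -1.71 ± 0.19 with TSG-6 and -0.82 ± 0.17 with HA. Rnd1 changed by 1.01 ± 0.17 with LPS, 0.98 ± 0.18 with TSG-6 and 0.84 ± 0.17 with HA. In WT cells with LPS, Rnd1 rose by 1.10 ± 0.23 (adjusted p = 0.00614). The list medians under TNFa in KO were 0.02 for plexin partners, 0.30 for VEGF genes, -0.13 for the other guidance cues and receptors, -0.01 for Eph signalling and -0.15 for Slit and Robo partners, against 0.01 for all probe sets.

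Between untreated KO and WT cells the same lists gave 8 higher and 3 lower of the 16 other guidance cues and receptors, 8 and 6 of 22 plexin partners, 4 and 5 of 20 Eph signalling genes, 3 and 4 of 14 Slit and Robo partners, and 3 and 4 of 8 VEGF genes, where 33.8% of all probe sets were called. Ntn1, a ligand of UNC5 receptors, was higher in KO by 2.10 ± 0.17 (adjusted p = 1.64e-12) and L1cam by 2.13 ± 0.23 (adjusted p = 2.03e-09). Robo4, an endothelial Robo of the first list, was lower by 4.67 ± 0.16 (adjusted p = 7.58e-23), Flt4, the lymphatic VEGF receptor, by 4.43 ± 0.19 and Vav3 by 2.73 ± 0.19.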

How the data were processed

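Each of the 42 cultures was hybridised to 1 Affymetrix array. The authors deposited log2 expression values; RMA is named in the submitters' processing notes, without a version. Each probe set is centred on its median, so no dim probe sets could be removed and an SD filter was tried in place of the planned filter. Base 2 was inferred: the largest range of a probe set, 9.81, would be 14.15 doublings under a natural logarithm. Of 45101 probe sets, 34958 carry 1 gene, 932 several and 9211 none; those with 1 gene were tested. All 61 member symbols matched RefSeq.

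All 42 arrays were fitted together with limma 3.58.1 in R 4.3.3 (lmFit and eBayes, a mean per group, 30 residual and 4.41 prior degrees of freedom), with Benjamini-Hochberg adjustment over 34958 probe sets and a threshold of 0.05. The fit was tested on simulated data with noise drawn independently for each array. That test did not cover arrays whose deviations correlate. Tables and figures used Python 3.11.15, pandas 2.3.3, numpy 2.4.6 and matplotlib 3.10.9. Where a gene has several probe sets, the one with the largest SD over the arrays is given unless another is named. Genes named are, per comparison, up to 10 rises and 10 falls that are largest among calls without overlap (5 each way for differences in response), 19 ligands and receptors given whatever they did, the most and least variable gene of each family, and up to 4 called members of a pathway list. Other called members in overlapping groups were named after their values were seen. The members, lists and naming rule were chosen with earlier results of these data known. Precision is limited by how many arrays a group has. Alternatives were quantile normalisation, array medians subtracted, an SD filter, 1 probe set per gene, only the groups compared, array set or replicate number as a block, leaving out arrays high in 18S, and leaving out each array.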

Additional observations from a re-analysis of the deposited data

Results flagged for a closer look

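In 7 of 246 gene and group pairs, 1 array lay far from the rest of its group; chance alone flags about 1 group in 20. Sema3e was at -0.18 in KO TNFa replicate 2, with the others at -1.26 to -1.18, and at 1.06 in KO HA replicate 2, with the others at -0.32 to -0.12. Ephb4 was at 0.45 in untreated KO replicate 3, with the others at -0.24 to 0.02. Sema4d was at 0.55 in KO LPS replicate 4, against -0.02 to 0.03 in the rest. Plxna3 was at -0.38 in untreated KO replicate 4, against -0.02 to 0.27. Ephb3 was at 0.29 in KO replicate 3 with TSG-6 and HA, against 0.07 to 0.09. Epha6 was at -0.27 in KO TNFa replicate 4, against 0.01 to 0.06.

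The TNFa response differed between genotypes, KO minus WT, for Nrp2 by 1.24 and, at a further Nrp2 probe set, by 0.86, and for Ephb6 by -1.13.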

How the results depend on the processing

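Counts below are called guidance probe sets. The SD filter and the array medians kept all 13 counts within 1.5 times their value. With 1 probe set per gene the counts were 19 for TNFa, 1 each for LPS, TSG-6 and HA and 4 for TSG-6 with HA in KO, 2 for TNFa in WT, and 36 between untreated genotypes. Quantile normalisation gave 4 for LPS, 10 for TSG-6 and 17 for TSG-6 with HA in KO, 0 for TNFa in WT and 5 for the difference in TNFa response. A fit over only the groups compared gave 4 for LPS in KO, 3 for TNFa in WT and 1 for the difference in TNFa response. With the array set as a block the counts were 16 for LPS, 14 for TSG-6, 9 for HA and 27 for TSG-6 with HA in KO, 18 for TNFa, 9 for LPS and 5 for TSG-6 with HA in WT, and 8 for the difference in TNFa response. Without the arrays high in 18S they were 1 for LPS, 1 for HA and 6 for TSG-6 with HA in KO. Counts without these arrays are left out for differences in response and for WT with TNFa, LPS, HA or both. In each of those WT groups 1 array remained. Array set a alone gave 10 for TSG-6 in KO, 9 for TNFa and 5 for LPS in WT and 1 for the difference in TNFa response; set b alone gave 6 for LPS and 2 for TSG-6 in KO and 5 for TSG-6 with HA in WT. The cause of these shifts was not tested.

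Same-numbered arrays did not pair throughout: their deviations from group means correlated from -0.62 to 0.57. In WT groups of 2 arrays the deviations are equal and opposite, so the signs of replicate 2 were fixed by replicate 1. In KO treatments same-numbered values ran from -0.247 to 0.568. Some differently numbered KO arrays did correlate: HA replicate 3 with untreated replicates 5 and 6 (0.555, 0.337), and HA replicate 4 with 7 and 8 (0.594, 0.595). TSG-6 replicate 3 did not correlate with 5 and 6 (-0.04, 0.012). Whether cultures were paired was not tested, and the main fit used no pairs. With a replicate block the counts were 41 for TNFa, 14 for LPS, 14 for TSG-6, 10 for HA and 25 for TSG-6 with HA in KO, 15 for TNFa, 13 for LPS, 3 for TSG-6, 2 for HA and 10 for TSG-6 with HA in WT, 66 between untreated genotypes, 11 for the difference in TNFa response and 1 for that in LPS response.

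Leaving out each array in turn gave 25 to 33 for TNFa, 1 to 3 for LPS, 1 to 5 for TSG-6, 1 to 3 for HA and 8 to 14 for TSG-6 with HA in KO. In WT it gave 1 to 5 for TNFa, 0 to 1 for LPS, 0 to 0 for TSG-6 and for HA, and 0 to 2 for TSG-6 with HA. It gave 53 to 67 between untreated genotypes, 1 to 3 for the difference in TNFa response and 0 to 0 for that in LPS response. Counts moved by over 1.5 times without KO LPS replicate 3 (1), KO TSG-6 replicate 1 or 2 (1), untreated KO replicate 2 or KO HA replicate 1, 3 or 4 (1 each for HA), WT TNFa replicate 1 (2) or 2 (1), WT LPS replicate 2 (1), untreated WT replicate 3 (1) or WT replicate 1 with TSG-6 and HA (2), and, for the difference in TNFa response, WT TNFa replicate 2 or KO TNFa replicate 4 (1 each). Leaving out a treated WT array, or taking 1 array set alone, keeps 1 array in that WT group, so those counts decide little. No named gene reversed its direction.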
